A study of Mus musculus with 4 samples.

Results

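The purinergic receptors described here are 8 genes, P2rx2, P2rx4, P2rx7, P2ry1, P2ry2, P2ry6, P2ry12 and P2ry14, taken by symbol from the gene lists of all 4 libraries. All 8 were found, of 27933 symbols in the gene list of the whole cells and 48694 in that of the nuclei. They were followed across the cell types of the stria vascularis (SV), the epithelium of the cochlear lateral wall that makes the endocochlear potential and secretes potassium into endolymph. The tissue came from CBA/J mice at postnatal day 30, with the SV of several mice pooled for each capture. The scRNA-Seq dataset held 3 captures of whole cells and the snRNA-Seq dataset held 1 capture of nuclei. All were made on a droplet platform that reads the 3' end of each RNA, with a unique molecular identifier (UMI) to count each molecule once.

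Purinergic receptors bind nucleotides outside the cell. P2X receptors are cation channels opened by ATP, whereas P2Y receptors are coupled to G proteins. Of the P2Y receptors studied here, the products of P2ry1, P2ry2 and P2ry6 act mainly through Gq and intracellular calcium and those of P2ry12 and P2ry14 through Gi. In the cochlea, P2X2 channels in cells that face endolymph are known to carry cations out of the endolymph when ATP is released, which lowers the endocochlear potential.

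The 3 captures of cells held 392, 1358 and 1580 barcodes with a median of 5054, 4938 and 3878 UMIs, and the nuclei held 11057 barcodes with a median of 1561. After barcodes with under 200 genes and called doublets were removed, 377, 1315 and 1462 cells and 9754 nuclei remained. The median share of mitochondrial UMIs in them was 38.6% to 45.4% in the cells and 8.30% in the nuclei. Between 0 and 32 barcodes were shared by any pair of libraries. Clusters were named from fixed markers, by a rule whose limits were set after the clusters were seen. No purinergic gene was used for clustering. Types were nevertheless defined in the same cells in which they were then compared.

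Named clusters held 45.6% of the cells and 60.8% of the nuclei. Marginal cells, which secrete potassium into endolymph, numbered 18, 72 and 43 in the 3 captures and 2587 among the nuclei. Intermediate cells, the melanocyte-like cells of the SV, numbered 135, 435 and 392, with 1478 nuclei. Basal cells, which are joined by tight junctions, numbered 21, 50 and 23, with 658 nuclei. Spindle and root cells, the epithelial cells at the margins of the SV and in the adjoining lateral wall, were treated as 1 type (spindle/root cells) and numbered 4, 13 and 15, with 202 nuclei. Macrophages numbered 5, 7 and 18, with 25 nuclei.

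All 8 marginal, all 6 basal and all 8 spindle/root markers had UMIs in their own type in every library. Intermediate cells had UMIs for 8 to 10 of their 10 markers, and Pmel was at 0 in all 3 captures. All 10 macrophage markers had UMIs in the macrophages of every library, at 4615 to 8970 counts per 1e6 UMIs (CPM) summed over the list. Leading genes of the macrophage clusters outside this list included Plac8, Ly6c2 and Ms4a6c in the cells and Siglech, Rnase6 and Cox6a2 in the nuclei. The class may thus not be macrophages alone. The macrophages also held RNA of other blood cells. The 9 neutrophil markers summed to 25.5, 880 and 19041 CPM in captures 1, 2 and 3, B cell markers reached 3218 CPM in capture 1, and erythroid markers reached 17028 CPM in the macrophage nuclei. The 10 intermediate markers summed to 6152 to 10056 CPM in marginal cells and to 8621 to 12131 CPM in basal cells, above the basal markers there (3767 to 4381 CPM). Basal nuclei likewise held intermediate markers at 5322 CPM and marginal markers at 3376 CPM, against 1576 CPM of their own. The part of these other RNAs in the receptor values was not tested.

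The receptor genes lay on 3 chromosomes of the mouse genome (GRCm38). P2rx2 (chr5:110339812-110343212, minus strand), P2rx7 (chr5:122643911-122691432, plus strand) and P2rx4 (chr5:122707544-122729738, plus strand) were on chromosome 5, the last 2 only 16111 bases apart. P2ry14 (chr3:59113855-59153618, minus strand), P2ry12 (chr3:59216272-59262871, minus strand) and P2ry1 (chr3:61002795-61008982, plus strand) were on chromosome 3. P2ry6 (chr7:100937630-100974649, minus strand) and P2ry2 (chr7:100996568-101012866, minus strand) were neighbours on chromosome 7, 21918 bases apart. P2ry12 and P2ry14 lie within Med12l, a Mediator subunit gene on the opposite strand, and exons of P2ry12 and Med12l overlap. P2ry1 shares exon sequence with the antisense gene Gm37035. The study's methods name default settings of the counting pipeline, under which reads on the sense strand of exons are counted. Whether that held for the nuclei, whose gene list is longer, is not given in the sources used here, so reads of these pairs may not be told apart there.

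Promoter windows of 250 bases before the start were taken from RefSeq (GRCm38.p6) for 3 receptors with unlike patterns. The receptors were the widely detected P2rx4, P2ry2, which was low in intermediate cells, and P2ry14. These windows overlapped no annotated exon. Those of P2ry2 and P2ry14 lie within the gene spans given above, so they precede starts inside those genes. P2rx2 and P2ry6 had no window in the set used. Capitals mark the core of the binding sequence of the myeloid factor PU.1 (GAGGAA, or TTCCTC on the other strand) and the half-site of the marginal cell factor ESRRB (AAGGTCA, or TGACCTT).
P2rx4: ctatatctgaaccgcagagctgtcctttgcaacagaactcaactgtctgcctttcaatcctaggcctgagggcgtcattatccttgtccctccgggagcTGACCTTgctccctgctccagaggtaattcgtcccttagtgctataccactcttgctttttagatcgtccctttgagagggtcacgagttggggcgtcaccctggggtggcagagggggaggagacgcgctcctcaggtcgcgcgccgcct
P2ry2: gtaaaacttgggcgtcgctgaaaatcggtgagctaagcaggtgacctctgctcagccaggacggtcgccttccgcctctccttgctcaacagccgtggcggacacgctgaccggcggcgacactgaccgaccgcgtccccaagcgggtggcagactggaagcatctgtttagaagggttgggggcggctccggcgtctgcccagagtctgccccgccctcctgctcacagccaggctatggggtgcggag
P2ry14: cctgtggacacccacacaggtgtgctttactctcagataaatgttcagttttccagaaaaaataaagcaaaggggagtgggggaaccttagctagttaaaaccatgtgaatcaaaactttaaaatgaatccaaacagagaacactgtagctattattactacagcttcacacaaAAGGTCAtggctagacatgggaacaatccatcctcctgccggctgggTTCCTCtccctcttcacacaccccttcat
The P2rx4 window (chr5:122707294-122707543, plus strand) held 1 ESRRB half-site, and the P2ry14 window (chr3:59131329-59131578, minus strand) held 1 of each motif. The P2ry2 window (chr7:101012054-101012303, minus strand) held neither. Of 32851 promoter windows of this length, 23.3% held the PU.1 core and 4.08% the ESRRB half-site. Of the windows not shown, the 3 others of P2ry14 each held 1 PU.1 core and no ESRRB half-site. In 1 of these (chr3:59131119-59131368), which overlaps the window shown, it is the same PU.1 core counted again. The windows of P2ry12, P2rx7 and P2ry1 and the other of P2ry2 held neither. The motifs were chosen after the values were seen, and a match is a description of the letters, not of binding.

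The receptors followed different patterns over the SV (levels by type are plotted for each gene). P2rx2 was highest in spindle/root cells, P2ry1 was higher in marginal cells, P2rx4 was detected in all 4 SV types, and P2ry6 and P2ry12 were highest in macrophages. UMIs were summed per capture and type, and the 14 sums with at least 5 cells were tested in edgeR with the capture as a block. Each SV type was set against the mean of the other 3, and macrophages against the mean of the 4 SV types. The captures are the replicates, and nothing states that they are separate litters, so the spread between them may be technical. The p-values rest on that spread as edgeR models it over genes and types together. They do not measure each receptor's own spread between captures alone.

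Of the 8 receptors, 5 passed the filter on low counts. P2rx7, P2ry2 and P2ry14 did not. P2ry6 and P2ry12 passed through macrophages, where they had nearly all their UMIs. P2rx2 passed through spindle/root cells, which held most of its UMIs in the sums, and P2ry1 through marginal cells. Such genes were bound or likely to differ once they passed, so nothing is read from the count of these calls against the share of all genes. At an adjusted p under 0.05, 1 receptor was called higher in marginal cells (13.7% of the 6443 genes tested), 1 in spindle/root cells (12.5%) and 2 in macrophages (18.1%). No receptor was called higher in intermediate or basal cells, where 16.2% and 13.5% of genes were called. In the other direction, 2 receptors were called lower in intermediate cells (16.2% of genes) and 1 in basal cells (9.45%). None was lower in marginal cells, spindle/root cells or macrophages, where 8.86%, 8.16% and 26.0% of genes were called. In the macrophage contrast the median log2 fold change of all genes was -0.44.

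**Figure D1:**
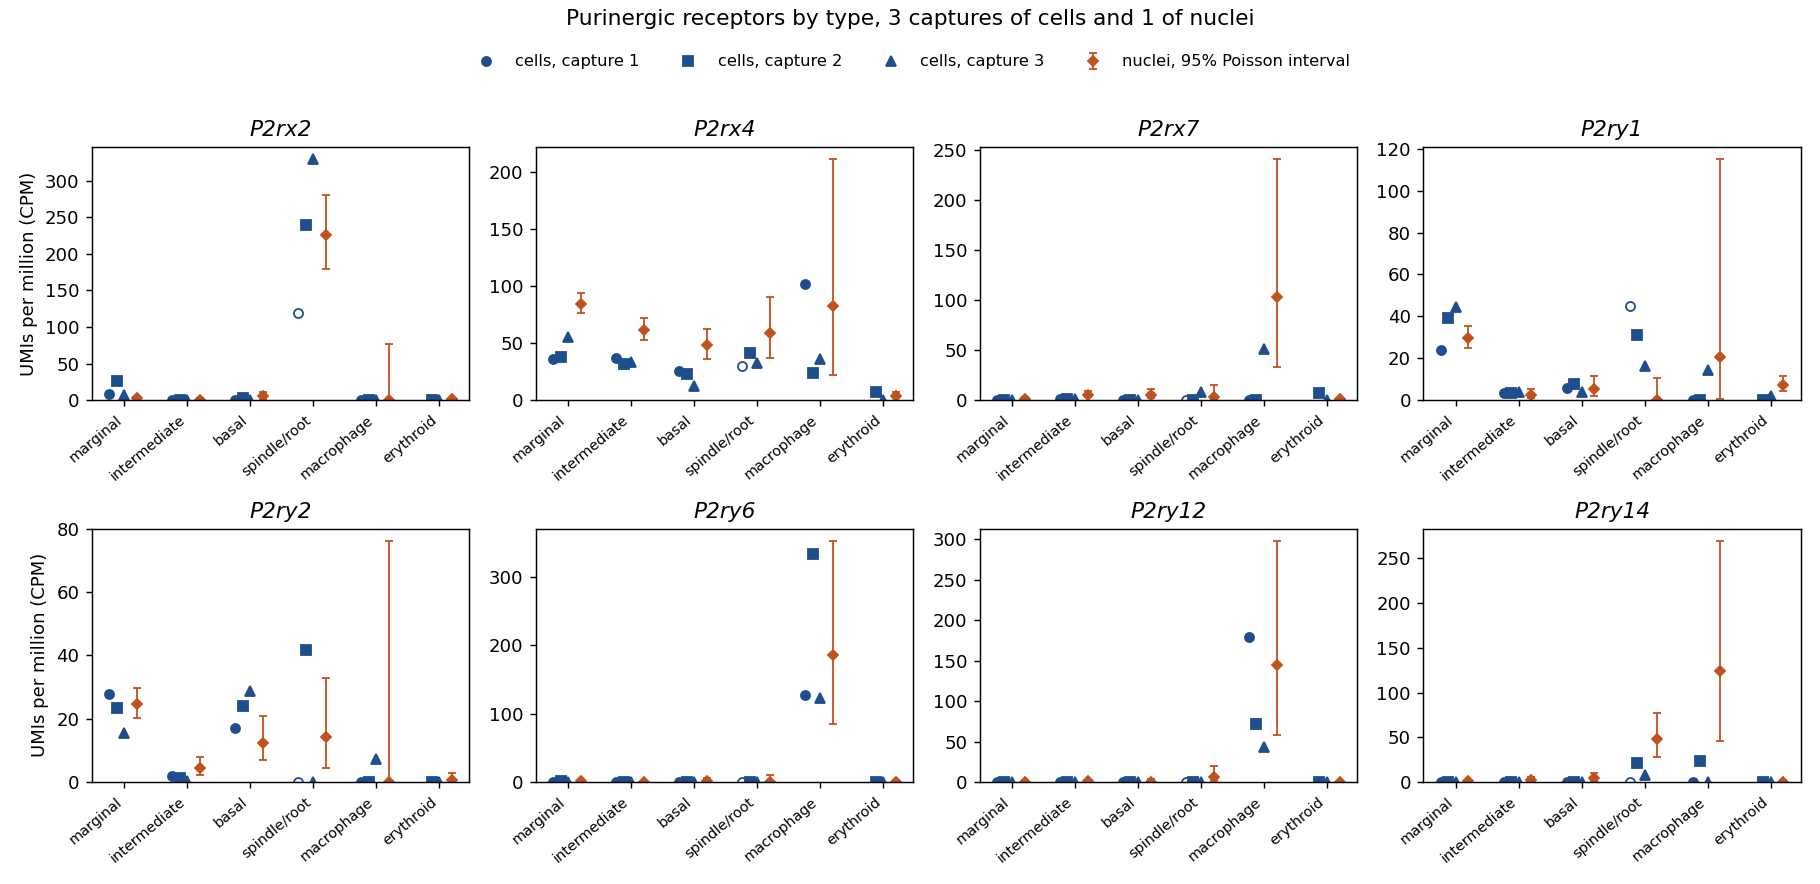
Level of each receptor (vertical axis, CPM) by type (horizontal axis) in the 3 captures of cells (blue, the open symbol a sum of 4 cells) and in the nuclei (orange, with the exact 95% Poisson interval, which covers counting error only). In the captures of cells, P2rx2 stands at 120 to 330 CPM in spindle/root cells, P2ry6 at 124 to 333 CPM in macrophages, and P2rx4 between 12.3 and 55.7 CPM in every SV type.

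P2rx2 encodes a slowly desensitising ATP-gated channel. In spindle/root cells it stood at 120, 240 and 330 CPM in captures 1, 2 and 3, from 8, 23 and 40 UMIs, the first of these in only 4 cells (230 ± 105, SD, n = 3 captures). In marginal cells it stood at 7.97, 25.8 and 6.68 CPM, from 2, 21 and 3 UMIs. The spindle/root captures were all above the marginal captures, without overlap. Intermediate cells held 4 P2rx2 UMIs in all and basal cells 2, and macrophages held none.

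In edgeR's quasi-likelihood test P2rx2 was higher in spindle/root cells, with a log2 fold change of 6.27 (SE 0.46, Benjamini-Hochberg adjusted p = 1.92e-40), fitted on captures 2 and 3. When capture 1 was admitted by lowering the limit to 3 cells per sum, a choice made after seeing the data, the value was 6.23 (adjusted p = 1.54e-24). Since P2rx2 entered these tests through spindle/root cells, the edgeR fit without the filter on low counts is given too. It gave 6.01 (SE 0.42, adjusted p = 3.99e-44, against 4.36% of genes called higher). With the filter, P2rx2 was lower in intermediate cells (log2 fold change -4.36, SE 0.94, edgeR adjusted p = 2.53e-05) and in basal cells (-3.02, SE 0.93, adjusted p = 0.00804). In both contrasts the mean of the other 3 types includes spindle/root cells, so these calls are not separate from the spindle/root level. Both lower calls were lost without capture 2, at an adjusted p of 1.0 and 0.108, and the basal call also without capture 3 (0.132). In marginal cells the log2 fold change was 1.11 (SE 0.51, adjusted p = 0.107). The study had picked P2rx2 on these same samples, so its direction here is not independent evidence. On tissue sections the study also reported P2rx2 transcripts together with Slc26a4 in spindle and root cells, by in situ hybridisation, which was not analysed here.

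In the nuclei P2rx2 stood at 225 CPM in the spindle/root class (80 UMIs, exact 95% Poisson interval 179 to 280) and at 2.97 CPM in the marginal class (13 UMIs, 1.58 to 5.07). The ratio of spindle/root to marginal was 14.6 in the cells (9.17 to 23.8) and 75.9 in the nuclei (42.0 to 149). Intermediate and basal nuclei stood at 0.798 and 5.34 CPM, from 2 and 6 UMIs. Outside the SV types, nuclei named for Reissner's membrane, the epithelium that closes the endolymph space, stood at 76.0 CPM from 11 UMIs.

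The P2rx2 UMIs of marginal cells came from few cells. Of 133 marginal cells, 11 held all 26 UMIs, with up to 5 in 1 cell. In those 11 cells the 8 spindle/root markers summed to 2900 CPM, against 60.4 CPM in the other 122 and 7654 CPM in spindle/root cells. Slc26a4, the anion exchanger pendrin and a spindle/root marker, had 14 UMIs in the 11 cells and 0 in the 122. In the nuclei the same markers summed to 319 CPM in the 13 marginal nuclei with a P2rx2 UMI and to 264 CPM in the 2574 without. Spindle/root cells in turn held marginal markers at 1576 to 2811 CPM. Whether RNA shared between these barcodes made up the marginal P2rx2 level was not tested.

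A P2rx2 UMI was found in 46.9% of 32 spindle/root cells (exact binomial 95% interval 29.1 to 65.3, median depth 7172 UMIs) and 28.7% of 202 spindle/root nuclei (22.6 to 35.5, median depth 1473). The erythroid barcodes, which were assumed to lack the gene, held P2rx2 in 0 of 100 cells (an upper limit of 3.62%, median depth 10194) and in 0.620% of 484 nuclei (median depth 5274.5). Thinned to 1000 UMIs per barcode, the shares were 15.6% of spindle/root cells and 20.4% of spindle/root nuclei, after 6 nuclei under that depth were left out. None of the thinned erythroid barcodes held a P2rx2 UMI.

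Spindle/root clusters with more UMIs of the markers Anxa1 and Dpp10 than of Epyc and Lgr5 were called the Anxa1 side. The other spindle/root clusters were called the Epyc side. P2rx2 was unequal between the sides. In the cells, 12 on the Anxa1 side held 65 UMIs (428 CPM) and 20 on the Epyc side held 6 UMIs (45.5 CPM). Capture by capture, the Anxa1 side stood at 266, 510 and 448 CPM, in 2, 3 and 7 cells, and the Epyc side at 0, 68.3 and 54.7 CPM, in 2, 10 and 8 cells. The sides did not overlap between captures. P2rx2 was found in 11 of the 12 cells on the Anxa1 side, with up to 16 UMIs in 1 cell. In the nuclei the sides stood at 302 CPM (50 UMIs) and 158 CPM (30 UMIs). The nuclei of the Epyc side were not alike, however. Its 3 clusters stood at 158, 30.2 and 459 CPM, in 45, 42 and 15 nuclei, and the cluster of 15, with 13 UMIs, lay above both clusters of the Anxa1 side (343 and 274 CPM). The lower pooled value of that side was thus not shared by all its clusters. The ratio of the Anxa1 to the Epyc side was 9.40 in the cells (4.09 to 26.5) and 1.90 in the nuclei (1.19 to 3.10). The intervals cover counting error only, and UMIs within a cell are not replicates.

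**Figure D2:**
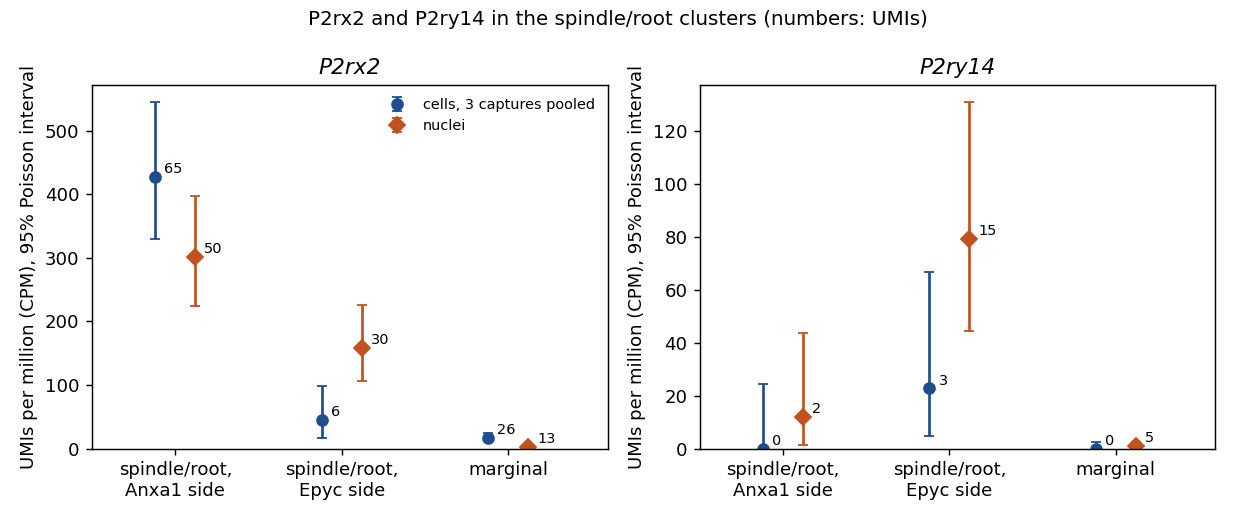
P2rx2 (left) and P2ry14 (right) in CPM (vertical axes) on the Anxa1 and Epyc sides of the spindle/root clusters and in the marginal type, for pooled cells (blue) and nuclei (orange), with exact 95% Poisson intervals and the UMIs beside each point. Pooled over clusters, P2rx2 is higher on the Anxa1 side, at 428 against 45.5 CPM in cells and 302 against 158 CPM in nuclei, although 1 Epyc-side cluster of 15 nuclei stands at 459 CPM, and P2ry14 is higher on the Epyc side, at 79.2 against 12.1 CPM in nuclei.

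P2rx4, an ATP-gated channel known from lysosomes as well as from the cell surface, was detected in all 4 SV types in every capture, at 12.3 to 55.7 CPM. Marginal cells stood at 35.9, 38.1 and 55.7 CPM (43.2 ± 10.9, SD, n = 3), and intermediate cells at 37.1, 32.1 and 33.2 CPM (34.1 ± 2.62). Spindle/root cells stood at 29.9, 41.8 and 33.0 CPM, from only 2, 4 and 4 UMIs, and basal cells at 25.6, 22.7 and 12.3 CPM. The first 3 of these types overlapped between captures. Basal cells were lowest, with each basal capture below every capture of the other SV types.

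Macrophages spread most, at 102, 23.8 and 36.3 CPM, from 4, 1 and 5 UMIs. No contrast passed the test for P2rx4. The log2 fold change was 0.45 in marginal cells (SE 0.29, adjusted p = 0.291), 0.36 in intermediate cells (SE 0.25, adjusted p = 0.293) and -0.84 in basal cells (SE 0.36, adjusted p = 0.0776). In macrophages it was 0.33 (SE 0.53, adjusted p = 0.645) and -0.014 without capture 1.

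The nuclei stood at 84.7 CPM in marginal (371 UMIs, 76.3 to 93.8), 61.8 in intermediate (155 UMIs, 52.5 to 72.4), 59.2 in spindle/root (21 UMIs, 36.6 to 90.4) and 48.1 in basal nuclei (54 UMIs, 36.1 to 62.7). The spindle/root interval overlaps those of all the other SV types, and the intermediate and basal intervals overlap too. The ratio of marginal to basal was 2.00 in the cells (1.26 to 3.26) and 1.76 in the nuclei (1.32 to 2.39). Erythroid barcodes held 1 UMI in the cells (0.915 CPM) and 10 in the nuclei (3.74 CPM). The 4 SV types pooled were 36.5 times that level in the cells (6.50 to 1445) and 19.2 times in the nuclei (10.4 to 40.3). Over the SV types pooled, P2rx4 was therefore above the level of erythroid barcodes in both datasets. That erythroid barcodes lack the gene was assumed, not tested. Erythroid barcodes give no measure of RNA passed between SV types, and erythroid nuclei were deeper than SV nuclei. The comparison thus cannot place P2rx4 in each SV type. It was found in 33.8% of marginal cells and 12.8% of marginal nuclei, and in 5.26% and 8.64% once thinned to 1000 UMIs.

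P2rx7, the channel of macrophages that opens at high ATP, was rare. Macrophages of captures 1 and 2 held none and those of capture 3 held 7 UMIs in 6 cells (50.9 CPM). The 4 SV types held 7 UMIs over all captures, 6 of them in intermediate cells. In the nuclei the macrophages stood at 103 CPM (5 UMIs, 33.5 to 241) and intermediate nuclei at 5.59 CPM (14 UMIs). Pooled, macrophages were 43.7 times the SV types in the cells (13.1 to 146) and 32.0 times in the nuclei (9.63 to 84.3), with counting error only. Without the filter the macrophage log2 fold change was 4.90 (SE 1.32, edgeR adjusted p = 0.00181 over 15973 genes, of which 9.13% were called higher), and in the cells it rests on capture 3, whose macrophages also held the neutrophil markers.

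P2ry1 encodes an ADP receptor coupled to Gq. Marginal cells stood at 23.9, 39.4 and 44.6 CPM, from 6, 32 and 20 UMIs (35.9 ± 10.7, SD, n = 3). Intermediate cells stood at 3.53, 3.53 and 3.95 CPM and basal cells at 5.68, 7.55 and 4.09 CPM. All marginal captures were above all intermediate and basal captures. Spindle/root cells overlapped with marginal cells, at 44.9, 31.3 and 16.5 CPM, from 3, 3 and 2 UMIs.

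P2ry1 was higher in marginal cells (log2 fold change 2.12, SE 0.42, edgeR adjusted p = 5.58e-06), and lower in intermediate cells (-1.88, SE 0.52, adjusted p = 0.00157). The intermediate call was lost without capture 2 (-1.45, adjusted p = 0.209). Spindle/root cells (0.91, SE 0.85, adjusted p = 0.509) and basal cells (-1.14, SE 0.64, adjusted p = 0.202) did not pass. Since P2ry1 entered this test through marginal cells, the edgeR fit without the filter on low counts is given too. It gave 2.16 in marginal cells (SE 0.38, adjusted p = 4.09e-07, against 6.39% of genes called higher). In intermediate cells it gave -1.74 (SE 0.48, adjusted p = 0.00264, against 5.98% called lower). In the nuclei P2ry1 stood at 29.7 CPM in marginal (130 UMIs, 24.8 to 35.2), 2.39 in intermediate and 5.34 in basal nuclei. The ratio of marginal to intermediate was 10.4 in the cells (6.35 to 17.5) and 12.4 in the nuclei (5.54 to 34.4).

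Cells and nuclei gave unlike P2ry1 values in the spindle/root type. Marginal cells were 1.36 times the spindle/root cells (0.647 to 3.30), whereas the 202 spindle/root nuclei held no P2ry1 UMI, which puts marginal nuclei at least 3.51-fold higher against a floor of 3 UMIs over the class. Erythroid nuclei held 20 P2ry1 UMIs (7.48 CPM), above the level of intermediate nuclei. P2ry1 was found in 4.60% of marginal and 3.31% of erythroid nuclei, and in 2.84% and 0.826% after thinning to 1000 UMIs. The overlapping antisense gene Gm37035 had no UMI in the 4 SV types of the cells and 5 in those of the nuclei.

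P2ry2, a Gq-coupled receptor for ATP and UTP, was found in marginal and basal cells and, from few UMIs, in spindle/root cells. Marginal cells stood at 27.9, 23.4 and 15.6 CPM (22.3 ± 6.22, SD, n = 3) and basal cells at 17.0, 24.2 and 28.6 CPM (23.3 ± 5.84). These types overlapped. Intermediate cells were below both in every capture, at 1.77, 1.41 and 0.395 CPM. All 4 UMIs of the spindle/root cells came from capture 2, which stood at 41.8 CPM, above every marginal and basal capture.

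In the nuclei P2ry2 stood at 24.7 CPM in marginal (108 UMIs, 20.2 to 29.8), 12.5 in basal (14 UMIs, 6.82 to 20.9), 14.1 in spindle/root (5 UMIs) and 4.39 in intermediate nuclei (11 UMIs). The ratio of marginal to basal was 0.947 in the cells (0.557 to 1.62) and 1.98 in the nuclei (1.13 to 3.74), and the difference between the datasets was not tested. The ratio of marginal to intermediate was 20.3 in the cells (8.81 to 54.3) and 5.62 in the nuclei (3.02 to 11.6). Without the filter on low counts, edgeR called P2ry2 higher in marginal (1.34, SE 0.44, adjusted p = 0.0284, against 6.39% of genes) and basal cells (1.53, SE 0.46, adjusted p = 0.0138, 7.21%). It was lower in intermediate cells (-3.62, SE 0.64, adjusted p = 2.59e-07, 5.98%). The mean set against marginal or basal cells includes the low intermediate cells, so these calls are not separate from one another.

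P2ry6 encodes the Gq-coupled receptor for UDP, known from phagocytosis. Macrophages stood at 128, 333 and 124 CPM, from 5, 14 and 17 UMIs (195 ± 120, SD, n = 3), while the 4 SV types held 2 UMIs over all captures. Every macrophage capture was above every SV sum. The macrophage log2 fold change was 9.14 (SE 0.80, edgeR adjusted p = 2.54e-28). Since P2ry6 entered that test through macrophages, the fit without the filter is given too, at 8.89 (SE 0.73, adjusted p = 3.65e-32). In the nuclei the macrophages stood at 186 CPM (9 UMIs, 85.0 to 353), against 11 UMIs in the 4 SV types. P2ry6 was found in 53.3% of 30 macrophages (34.3 to 71.7, median depth 4628.5) and 32.0% of 25 macrophage nuclei. The erythroid barcodes held it in 0 of 100 cells (an upper limit of 3.62%) and 2 of 484 nuclei. Thinned to 1000 UMIs per barcode, the shares were 16.7% of macrophages and 21.7% of macrophage nuclei, after 2 nuclei under that depth were left out.

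P2ry12, the Gi-coupled ADP receptor of platelets and tissue macrophages, stood at 179, 71.4 and 43.6 CPM in macrophages, from 7, 3 and 6 UMIs. No UMI fell in any of the 4 SV types. Against a floor of 3 UMIs over those types pooled, macrophages were at least 233-fold higher. The adjusted p was 5.10e-12 in edgeR and 0.0907 in DESeq2, but P2ry12 entered both tests through macrophages alone, so they add little to the counts. Without the filter the edgeR adjusted p was 3.84e-11. The fitted fold change is no bound, since the SV types were at 0. When any 1 capture was left out P2ry12 failed the filter, and in the unfiltered fits the adjusted p ranged from 2.68e-07 to 2.94e-05 over the 3 captures left out, a setting added after seeing the data.

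In the nuclei P2ry12 stood at 145 CPM in macrophages (7 UMIs, 58.2 to 298), against 6 UMIs in the SV types. The ratio was 202 (58.0 to 726). Med12l, the gene on the other strand, had 1 UMI in the macrophages of the cells and 3 in the nuclei. P2ry6 and P2ry12 were found together in 6 of 30 macrophages and 2 of 25 macrophage nuclei.

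P2ry14, the Gi-coupled receptor for UDP-glucose, had few UMIs in the cells and more in the nuclei. In the cells it had 3 UMIs in the spindle/root type, 2 in capture 2 and 1 in capture 3, and 1 in macrophages. In the nuclei it stood at 47.9 CPM in the spindle/root class, from 17 UMIs in 15 nuclei (27.9 to 76.7). Of these, 15 lay on the Epyc side (79.2 CPM) and 2 on the Anxa1 side (12.1 CPM), a ratio of 6.56 (1.53 to 59.1). All 3 UMIs of the cells were also on the Epyc side, at least 1.15-fold higher than the Anxa1 side against a floor of 3 UMIs. Within the Epyc side, 8 of the 15 UMIs of the nuclei were in the cluster of 15 nuclei (282 CPM), which also had the highest P2rx2 level of the spindle/root clusters of nuclei. The cluster of 45 nuclei held the other 7 (73.8 CPM) and that of 42 held none.

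Macrophage nuclei stood at 124 CPM for P2ry14, but all 6 UMIs came from 2 nuclei. Whether these 2 were macrophages or other cells within the class was not tested. Without the filter the log2 fold change was 5.83 in spindle/root cells (SE 2.02, edgeR adjusted p = 0.0455, 4.36% of genes called higher), from 3 UMIs, and 3.20 in macrophages (SE 2.10, adjusted p = 0.341). Med12l, in which P2ry14 lies, had 26 UMIs in spindle/root nuclei (73.2 CPM), 11 in the far more numerous marginal nuclei (2.51 CPM) and 0 in spindle/root cells. Its part in the P2ry14 values was not tested.

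**Figure D3:**
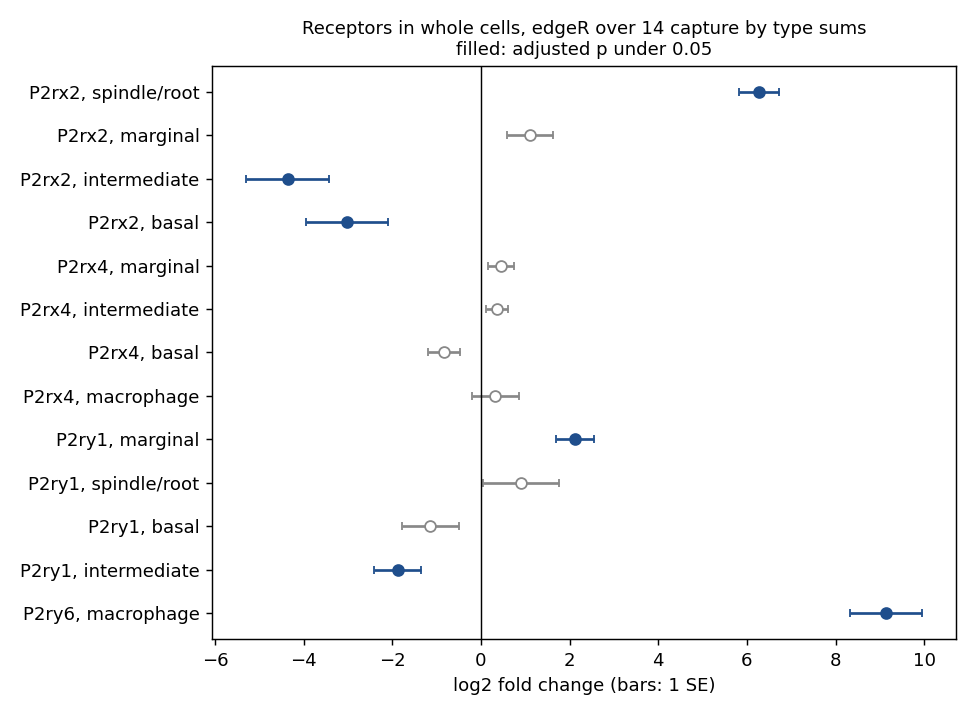
Log2 fold change of receptors that passed the filter (horizontal axis, bars 1 SE) in the contrasts of whole cells (rows), with filled points at an adjusted p under 0.05 in edgeR. P2rx2 in spindle/root cells (6.27), P2ry1 in marginal cells (2.12) and P2ry6 in macrophages (9.14) lie right of 0, and no P2rx4 contrast that is drawn is filled. P2ry12 is not drawn because the SV types were at 0. P2rx4 in spindle/root cells, P2rx2 and P2ry1 in macrophages and P2ry6 in the SV types are not drawn either, and none of these was called.

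The make-up of the receptor UMIs differed between some types, and this was not tested. UMIs count molecules tagged at the 3' end and are not scaled by gene length. In marginal cells, 183 UMIs of the 8 receptors were P2rx4 (35.5%), P2ry1 (31.7%), P2ry2 (18.0%) and P2rx2 (14.2%) for the most part. In marginal nuclei P2rx4 was 57.7% of 643, P2ry1 20.2% and P2ry2 16.8%. Intermediate cells were mainly P2rx4, at 83.8% of 259 UMIs in the cells and 78.3% of 198 in the nuclei. In basal cells P2ry2 (43.9% of 66) and P2rx4 (40.9%) were close. In basal nuclei P2rx4 was 58.1% of 93 and P2ry2 15.1%, near the shares in marginal nuclei.

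Spindle/root cells were mainly P2rx2, at 73.2% of 97 UMIs in the cells and 63.5% of 126 in the nuclei. In macrophages P2ry6 was 49.3% of 73 UMIs in the cells and P2ry12 21.9%, and in the nuclei they were 28.1% and 21.9% of 32. At least 1 receptor UMI was found in 66.2% of marginal, 23.8% of intermediate, 50.0% of basal and 59.4% of spindle/root cells, and in 73.3% of macrophages. In erythroid cells this share was 4.00%. In the nuclei the shares were lower, at 20.8% of marginal, 12.1% of intermediate, 13.1% of basal and 39.6% of spindle/root nuclei and 60.0% of macrophage nuclei, against 7.02% of erythroid nuclei. Depth differed between the types, from a median of 4628.5 UMIs in macrophages to 12153 in basal cells, so these shares are not an order of expression.

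**Figure D4:**
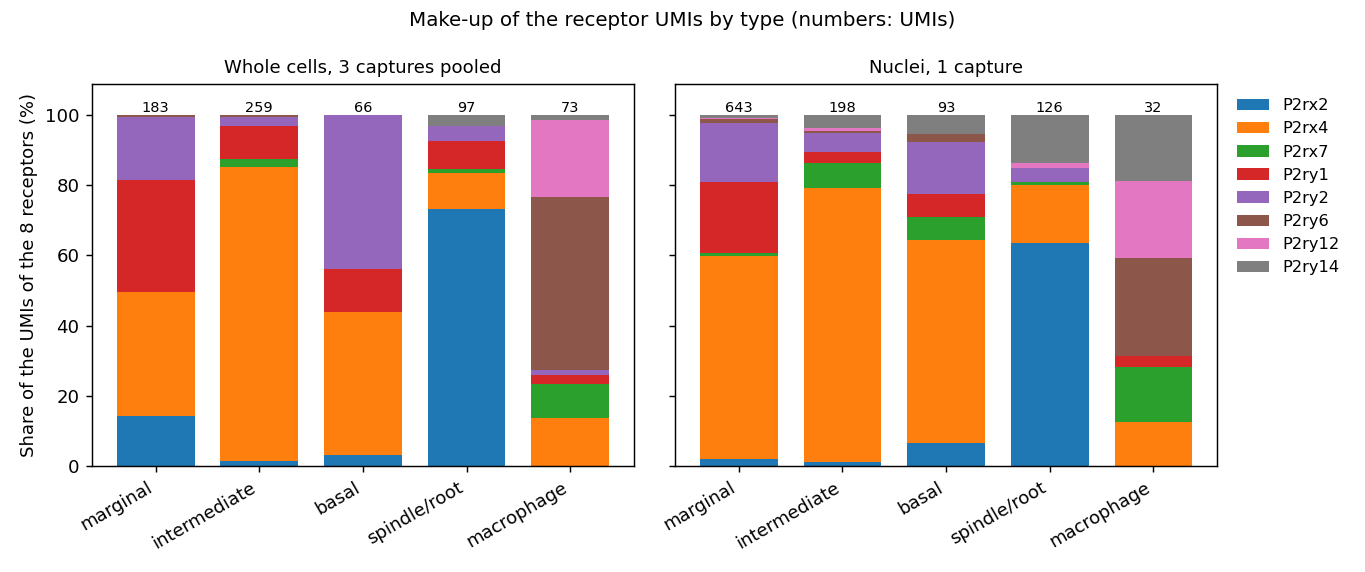
Share of each receptor (vertical axis, percent) among the UMIs of the 8 receptors in each type (horizontal axis), for the pooled cells (left) and the nuclei (right), with the UMIs above each bar. P2rx2 takes 73.2% and 63.5% in the spindle/root type, P2rx4 83.8% and 78.3% in the intermediate type, and P2ry6 49.3% and 28.1% in macrophages.

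The genes with the most similar pattern were found for the 4 receptors with at least 50 UMIs in both datasets, as the mean of Pearson's r of log2(CPM + 10) over 20 capture by type sums and over 11 classes of nuclei. The sums share captures and depth, so r is a description. For P2rx2 they were Slc26a4 (r = 0.97 in the cells and 0.96 in the nuclei), itself a marker used for naming, then Lect1 (0.95 and 0.95), a secreted cartilage protein also called chondromodulin, and the keratin Krt8 (0.96 and 0.89). For P2rx4 they were Slc17a5 (0.83 and 0.93), the lysosomal sialic acid exporter sialin, the endosomal protein gene Dnajc13 (0.84 and 0.89) and D15Ertd621e (0.79 and 0.92). For P2ry1 the values were lower, with Tnfrsf21 (0.70 and 0.77), Cmtm8 (0.76 and 0.69) and Slc31a2 (0.74 and 0.66). P2ry2 was followed by Rab11fip4 (0.86 and 0.90), the semaphorin receptor Plxnb1 (0.78 and 0.95) and the transcription factor Pax2 (0.76 and 0.93).

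None of the 7 other P2 receptors in both gene lists passed the filter on low counts. P2ry13, an ADP receptor of blood cells, had 10 UMIs in macrophages of the cells (45.7 CPM) and 2 in those of the nuclei. P2rx5 had 1 UMI in macrophage nuclei and 5 in marginal nuclei, and none in those types of the cells. P2ry4, a receptor for uridine nucleotides, had no UMI in any of the 4 SV types of either dataset, with an exact 95% upper limit of 2.44 CPM in marginal cells and 0.842 CPM in marginal nuclei. Of the 4 receptors for adenosine, the product of ATP breakdown, Adora1 alone was tested. Adora1 was higher in marginal cells (log2 fold change 2.70, SE 0.41, edgeR adjusted p = 1.43e-09, against 13.7% of genes called higher). The marginal type stood at 50.9 CPM in the cells and 39.5 CPM in the nuclei. Basal, intermediate and spindle/root cells stood at 7.15, 5.38 and 10.6 CPM, so Adora1 passed the filter through marginal cells. Its call there is thus no separate support. Macrophages held no Adora1 UMI in the cells and 4 in the nuclei, where they stood at 82.7 CPM (22.5 to 212), above the marginal nuclei. Adora2b had 1 UMI in macrophages of each dataset.

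Of the 12 enzymes that break down or salvage nucleotides and adenosine, 3 were tested. Adk, the adenosine kinase, was higher in marginal cells at 84.0 CPM (edgeR adjusted p = 0.000159). Alpl, a phosphatase that acts on extracellular nucleotides, was higher in intermediate cells at 168 CPM (adjusted p = 6.24e-35) and lower in spindle/root cells and macrophages. Pnp, which splits purine nucleosides, was higher in basal cells (log2 fold change 2.84, SE 0.99, edgeR adjusted p = 0.0227) and macrophages (4.30, SE 0.75, adjusted p = 1.02e-07). Marginal (1.63) and intermediate cells (1.46) were also above 0 but not called. The mean set against basal cells includes spindle/root cells, which were at -5.93 (SE 2.87, adjusted p = 0.135). The basal call is thus not separate from the spindle/root level. Entpd3, an ectonucleotidase, did not pass the filter and stood at 144 CPM in spindle/root nuclei (51 UMIs) and 31.7 CPM in spindle/root cells (9 UMIs), against 6.16 and 5.29 CPM in the marginal type. Of the 6 nucleoside transporters, Slc29a3 alone was tested and was not called in any contrast. Slc29a1 stood at 34.8 CPM in intermediate and 18.3 CPM in macrophage cells, and at 27.9 CPM in intermediate and 41.3 CPM in macrophage nuclei, the last from 2 UMIs.

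Of the 9 ATP release routes, 3 were tested. The connexin genes Gjb2 and Gjb6, whose hemichannels can pass ATP, were higher in basal cells, at 2936 and 1708 CPM (edgeR adjusted p = 1.33e-40 and 2.10e-15), and lower in marginal cells, spindle/root cells and macrophages. In the nuclei Gjb2 stood at 496 CPM in spindle/root and 465 in basal nuclei, and Gjb6 at 594 and 508 CPM, so there the spindle/root class was not the lower. Gjb6 was also higher in intermediate cells, as was Lrrc8a, a subunit of the volume-regulated anion channel, which was lower in basal cells and macrophages. Of the 12 genes for G proteins, phospholipases and calcium release, 8 were tested. The inositol trisphosphate receptor genes Itpr1 and Itpr2 were higher in marginal cells, at 687 and 272 CPM in the cells and 1345 and 866 CPM in the nuclei (edgeR adjusted p = 9.10e-17 and 4.28e-51 in the cells), and lower in intermediate cells and macrophages. Itpr2 was also lower in basal cells, where Itpr3 was higher. Gnai2, a Gi subunit, was higher in macrophages and lower in marginal cells, and Plcb4 was higher in spindle/root cells.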

How the data were processed

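The deposited files are matrices of raw UMI counts per gene and barcode, which per the labels the authors made with Cell Ranger 2.0.0 on mm10. The study's methods name default settings and the pipeline's own mm10 reference, and do not say which gene list was used for the nuclei (48816 entries, against 27998 for the cells). Barcodes with at least 200 genes were kept, and doublets were scored with Scrublet (scanpy 1.11.5) per capture and removed at 0.8% per 1000 barcodes. Cells and nuclei were clustered apart in Seurat 5.3.0, following the study's settings (2000 variable genes, smart local moving, resolution 0.8, principal components that pass JackStraw, here 36 and 40). Purinergic genes were kept out of the variable genes. Clusters with raised markers of more than 1 class were clustered again. A cluster was named where at least 3 markers of its class were raised. The limits of this naming rule (0.67 for the next class's score) were set after the clusters were seen. The only macrophage cluster of the cells scored 4.86 for macrophages and 3.19 for neutrophils, just under that limit. A slightly lower limit would have left it unnamed, so the macrophage values of the cells depend on this choice.

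UMIs were summed per capture and type and tested with edgeR 4.0.16 (quasi-likelihood, TMM, filterByExpr, Benjamini-Hochberg over 6443 genes, adjusted p under 0.05), with DESeq2 1.42.0 as an alternative. Sums of at least 5 cells entered. CPM is counts per 1e6 UMIs of the sum. Nuclei were 1 library and got no test. Exact 95% intervals and floors of 3 UMIs cover counting error only. The test was run on simulated counts, with changes set in marginal sums alone and for genes above a low level. The outcome is not given here, and this check does not cover receptors with few UMIs. All types of a capture came from 1 suspension, so the capture paired them. Over 26 pairs of types the correlation of deviations within a capture was -0.0438 to 0.345, above 0.1 in 16.

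The 8 members and all lists were chosen with earlier results of these data known. All members are named. From each list, the 2 genes with the smallest adjusted p and the 2 highest in the nuclei are named, and Lrrc8a, Itpr3, Gnai2, Plcb4 and P2ry4, chosen after their values were seen, are named beyond that rule. Promoters are RefSeq windows, and gene positions are from GENCODE. Proteins were not analysed here.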

Additional observations from a re-analysis of the deposited data

Results flagged for a closer look

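P2rx2 in marginal against basal barcodes differed in direction between the datasets. Marginal minus basal was 7.97, 22.8 and 6.68 CPM in the 3 captures of cells, from 28 UMIs in both types, and -2.38 CPM in the nuclei, from 19 UMIs. The difference between cells and nuclei was not tested.

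Barcodes whose cluster got no type name also held receptor UMIs, above the limit that a count of 0 allows. In the cells these were 4 UMIs of P2rx2, 72 of P2rx4, 33 of P2ry1 and 26 of P2ry2. In the nuclei they were 17 of P2rx2, 98 of P2rx4, 11 of P2rx7, 70 of P2ry1, 47 of P2ry2, 12 of P2ry6 and 12 of P2ry14. These barcodes entered no comparison between types. In the cells they included a cluster of 352 that scored highest for marginal markers, with 2 of 8 raised, against 133 named marginal cells. Another cluster of 71 had all 6 basal markers raised but also 3 fibrocyte markers, against 94 named basal cells. The marginal and basal levels of the cells thus describe the named barcodes only.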

How the results depend on the processing

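Among the values with a test, P2rx2 in spindle/root cells (log2 fold change 5.60 to 7.68), P2ry1 in marginal cells (1.86 to 2.33) and P2ry6 in macrophages (8.10 to 9.96) kept their direction in every alternative that could be fitted. Their adjusted p in edgeR or DESeq2 also stayed under 0.05 where no type was left with a lone sum. P2rx2, P2ry1 and P2ry6 passed the main filter through these same types, so their calls in filtered fits are no separate support. Without the filter on low counts, 8 pairs of receptor and type were called higher in place of 4. Without capture 2 no pair was called lower, so the count of lower pairs ranged from 0 to 3 over captures left out. Over captures left out, the genes called numbered 948 to 1252 in marginal, 869 to 1227 in basal and 722 to 1335 in spindle/root cells and 1511 to 2566 in macrophages, against 1454, 1477, 1331 and 2842 with all captures. Those fits have fewer samples, and without capture 2 or 3 the lone spindle/root sum is assumed to vary like the other types. Log2 fold changes ranged from -2.05 to -1.45 for P2ry1 in intermediate cells, from -4.64 to -3.09 for P2rx2 in intermediate cells and from -5.48 to -2.56 for P2rx2 in basal cells. P2rx4 in macrophages ranged from -0.014 to 0.40. P2ry12 in macrophages was 7.36 in DESeq2 (adjusted p = 0.0907), and the cause was not tested. With doublets kept, P2ry12, P2ry14, P2ry6 and P2rx7 stood at 35.2, 25.2, 90.6 and 60.4 CPM in macrophage nuclei. With doublets removed they stood at 145, 124, 186 and 103 CPM. The P2ry12 and P2ry14 values with doublets kept lay below the counting intervals of the values with doublets removed. The cause was not tested. Without the replicate block, 4 pairs were called higher and 3 lower, P2rx2 in spindle/root cells was 6.45, and no call changed. Macrophages could not be tested in cells with doublets kept or with purinergic genes allowed for clustering, since no macrophage cluster was named, and macrophage nuclei were not named with 20 principal components or at resolution 0.4. P2ry1 could not be tested with 3 cells per sum, nor P2ry12 with 10, since they failed the filter. With 1 to 40 UMIs behind most values per capture, depth limits what can be told.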
